A study of Mus musculus and synthetic construct with 32 samples.

Results

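The 8 genes described here encode regulators of transcription in spermatocytes, the male germ cells in meiosis: Zfp541, Kctd19, Mtl5 (also named Tesmin), Mybl1, Tcfl5, Rfx2, Sox30 and Ovol1. They were taken by name, with their sense exons and sense introns, from the tables of P8 testis, P12 testis, P0 ovary and m6A immunoprecipitation, and all 8 were found among 22750 genes with an exon row in any of these 4 tables. The members were chosen by their names with the P12 knockout folds known, so the P12 values below are a description and no test of the list.

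All animals were of the C57BL/6J strain. Total RNA came from P12 testes of 3 YTHDC2 -/- and 3 YTHDC2 +/- samples, from P8 testes of 2 YTHDC2 -/-, 1 YTHDC2 +/- and 1 YTHDC2 +/+ sample, and from newborn (P0) ovaries of 2 YTHDC2 -/- and 2 YTHDC2 +/- samples. For m6A, polyadenylated RNA of P8 YTHDC2 +/+ testis was fragmented and enriched with an antibody to m6A, with 1 immunoprecipitate and 1 input. YTHDC2 is an RNA helicase whose YTH domain binds N6-methyladenosine (m6A). Its gene was disrupted by Cas9 editing of mouse embryos, in one line by removal of exon 7 and in the other by stop codons placed in exon 7, and which of these lines gave a given library is not stated in the labels. The controls at P12 and P0 carried one disrupted allele. Nothing in the labels says how many animals a sample holds, so a p-value measures the spread between samples, which may be technical. Values per library are not used here, because each table gives a mean normalized count over all its libraries, a log2 fold change and an adjusted p-value, as the authors computed them. A value for each sample therefore cannot stand beside the fold changes.

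Spermatocytes turn on a large set of genes as they pass from early meiotic prophase to pachytene, the long stage in which paired chromosomes exchange segments. MYBL1 (A-MYB) is the best known regulator of that switch: it drives meiotic genes and the precursors of pachytene piRNAs, small RNAs that guide PIWI proteins. ZFP541 and KCTD19 bind each other and histone deacetylases in pachytene spermatocytes and are needed to complete meiotic prophase. Tesmin is a cysteine-rich DNA-binding protein related to LIN54 of the cell cycle complex MuvB, TCFL5 a basic helix-loop-helix factor, RFX2 a winged-helix factor of cilium and spermatid genes, SOX30 an HMG-box factor of spermatid genes, and OVOL1 a zinc finger repressor.

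Markers of the labelled tissues were detected. In P12 testis 7 of 7 Sertoli cell markers and 5 of 5 germ cell markers had mean normalized counts of at least 10, the floor used throughout, and in ovary 7 of 7 oocyte markers did. Markers of other cells reached the floor too, so reaching it does not tell the tissues apart. These were 5 of 7 oocyte markers and 2 of 8 spermatid markers in P12 testis, 7 of 8 spermatid markers in P8 testis, and 7 of 7 Sertoli cell and 6 of 8 spermatid markers in ovary. Per the authors' deposited table for P12, Ythdc2 exons were at -1.29 on the log2 scale, and per the authors' deposited table for P0 they were at -0.43, a value that did not pass. In P8 testis against the wild type the authors' deposited table had Ythdc2 exons at -0.50. A count of all exons does not test for a change in exon 7 alone.

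Sequence upstream of a start site is shown, as a description, for the members whose RefSeq start lies at the outer end of the gene. No link between these sequences and the folds was tested. RefSeq windows of GRCm38.p6 were at hand for 5 members, and those of Zfp541 and Sox30 and a further one of Mtl5 lie within the gene's own span and are not shown. Each line gives the 250 bases before the start, with capitals on 3 motifs searched on both strands. These are the MYB site AACNGTT, the E-box CACGTG, and GTTNCC, a part of the X-box that RFX factors bind. A whole X-box was not searched for, so a GTTNCC match does not show that the window holds one. The windows are chr19:3388607-3388856 (plus strand) for Mtl5, chr17:56831009-56831258 (minus strand) for Rfx2 and chr2:180642692-180642941 (minus strand) for Tcfl5.
Mtl5 (Tesmin): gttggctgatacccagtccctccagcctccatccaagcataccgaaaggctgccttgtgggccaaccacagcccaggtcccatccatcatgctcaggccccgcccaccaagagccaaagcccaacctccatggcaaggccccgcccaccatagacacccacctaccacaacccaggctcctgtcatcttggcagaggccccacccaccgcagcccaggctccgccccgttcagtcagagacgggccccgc
Rfx2: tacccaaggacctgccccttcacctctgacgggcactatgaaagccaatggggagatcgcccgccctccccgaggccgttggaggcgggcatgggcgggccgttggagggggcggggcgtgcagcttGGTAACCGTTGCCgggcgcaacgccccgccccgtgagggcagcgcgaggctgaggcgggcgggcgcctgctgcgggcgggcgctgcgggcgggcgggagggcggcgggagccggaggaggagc
Tcfl5: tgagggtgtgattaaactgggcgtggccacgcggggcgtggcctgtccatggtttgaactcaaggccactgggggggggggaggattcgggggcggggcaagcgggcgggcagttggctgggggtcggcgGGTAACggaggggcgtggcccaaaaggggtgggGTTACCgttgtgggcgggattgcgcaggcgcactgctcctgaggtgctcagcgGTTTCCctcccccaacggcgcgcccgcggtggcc

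Of the windows of Mtl5, the member lowest in the P12 knockout, that printed held none of the 3 motifs. That within the gene held an E-box 122 to 117 and a GTTNCC match 78 to 73 bases before its start. In the window of Rfx2 a MYB site, AACCGTT, lies 120 to 114 bases before the start, and it overlaps a GTTNCC match on either side. Such a MYB site occurred in 3.80% of 32851 windows of this length. The Tcfl5 window held 3 matches to GTTNCC, a motif found in 39.4% of windows, and no window printed held the E-box, which occurred in 6.02%. A match of letters does not show a bound site, and its absence from this window shows nothing about the factor.

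In the P12 testis 5 of the 8 genes were called lower in exons and 0 higher, at an adjusted p below 0.05, where 0.784% of 15558 genes tested were lower and 0.0964% higher. They fall into a strong group of 3 genes, a weaker group of 2 genes, and 3 genes whose exons did not pass. The median exon fold of the 8 was -0.57, against 0.01 over all genes tested. In introns, which report mostly unspliced RNA, 3 of the 8 were called lower, where 0.93% of 13874 were, and all 8 lay below 0, as did 48.5% of introns tested. The whole-testis libraries cannot tell fewer spermatocytes from less RNA in each.

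**Figure D1:**
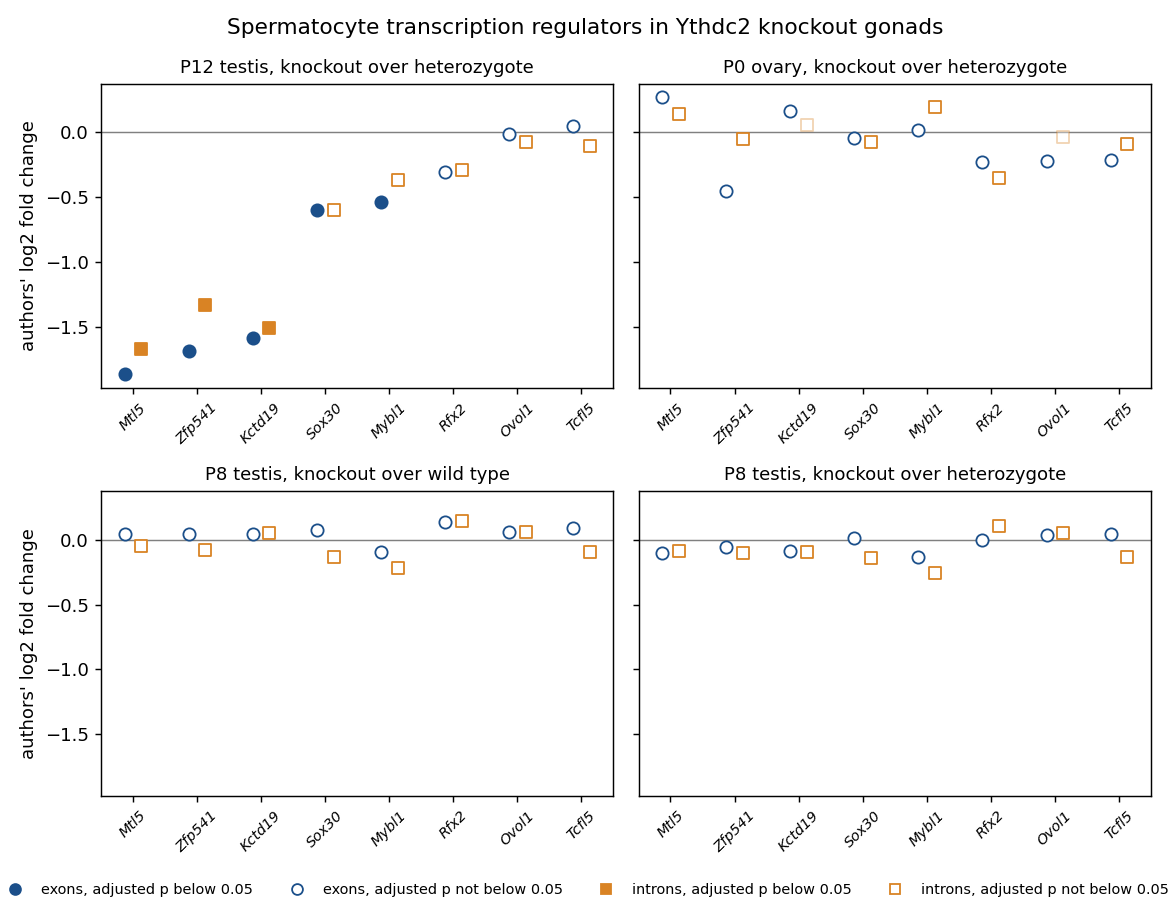
Authors' log2 fold changes (y axis) of the 8 genes (x axis) in 4 comparisons, with circles for exons, squares for introns, filled where the adjusted p was below 0.05, and pale where the mean count was under 10. In P12 testis Mtl5, Zfp541 and Kctd19 lie below the others, from -1.87 to -1.33 with introns included, while no symbol is filled in the other 3 panels.

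Mtl5 (chr19:3388857-3407823) had the lowest exon fold of all genes tested in P12 testis, at -1.87 with a mean normalized count of 331 per the authors' deposited table. Its introns ranked 3 from the bottom of all introns tested, at -1.68 in the authors' deposited table, and were called lower as well. Exons and introns thus differed by 0.19 on the log2 scale, little beside the size of either fold.

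Zfp541 and Kctd19, the partner genes, stood close together. Zfp541 (chr7:16061775-16096340) had an exon fold of -1.69 at a mean count of 497, rank 3 from the bottom, in the authors' deposited table. Kctd19 (chr8:105382801-105413502), whose product carries a domain shared with potassium channels, had an exon fold of -1.59 at a mean count of 87.5, rank 6, in the authors' deposited table. For their introns the authors' deposited table gave -1.33 and -1.51, and all 4 values were called lower. The gap between exons and introns was wider for Zfp541, at -0.36, than for Kctd19, at -0.08, and whether these gaps differ was not tested.

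Sox30 and Mybl1 made up the weaker group. In P12 exons Sox30 (chr11:45979069-46017992) was at -0.60 with a mean count of 95.7, and Mybl1 (chr1:9667407-9700439) at -0.54 with a mean count of 1028, in the authors' deposited table. Both were called lower in exons, with ranks of 74 and 96 from the bottom. Their introns, at -0.60 for Sox30 and -0.37 for Mybl1 in the authors' deposited table, did not pass. By the authors' DESeq2 fit the adjusted p was 0.0894 for introns of Sox30 and 0.451 for those of Mybl1.

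Rfx2, Ovol1 and Tcfl5 did not pass in P12 testis. The exon fold of Rfx2 (chr17:56775897-56831008) was -0.30 and that of its introns -0.29 in the authors' deposited table, with 3.03% of exons tested below it. Ovol1 (chr19:5549137-5560575) was at -0.01 in exons and -0.08 in introns per the authors' deposited table, near the middle of all genes. For Tcfl5 (chr2:180621956-180642691) the authors' deposited table gave 0.05 in exons and -0.11 in introns, at a mean exon count of 904, one of the higher levels among the 8. A fold that did not pass does not show that a gene was unchanged. Over all genes the authors' folds had an SD of 0.18 at mean counts from 50 to 200, which holds Rfx2 and Ovol1. From 200 to 1000, which holds Tcfl5, the SD was 0.17, and from 10 to 50, which holds none of these genes, it was 0.12.

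**Figure D2:**
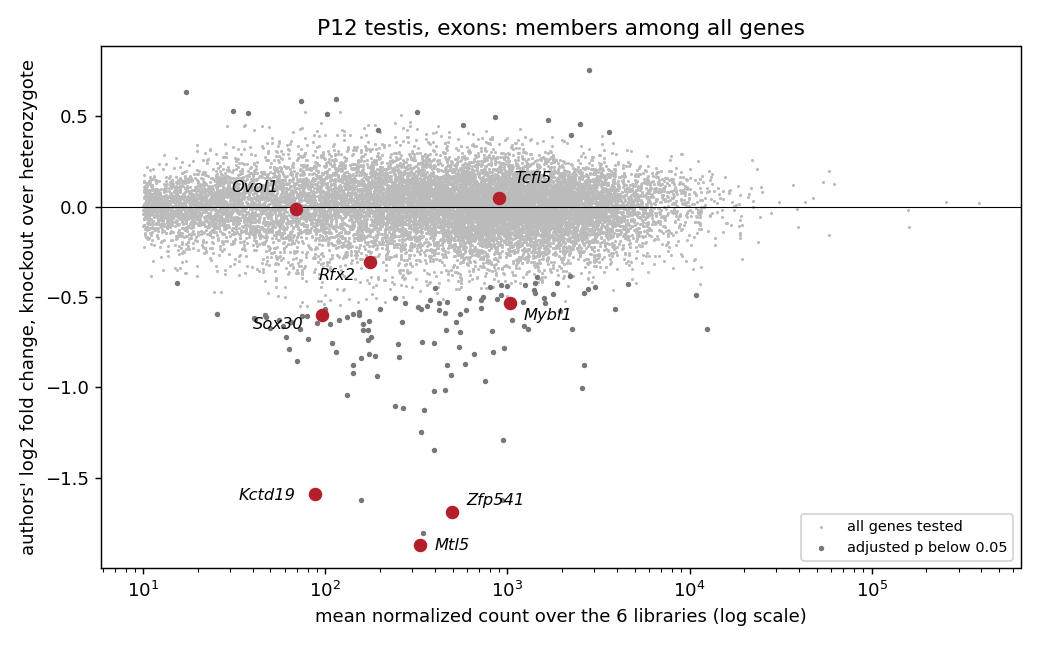
P12 testis exons: authors' log2 fold change, knockout over heterozygote (y axis), against the mean normalized count on a log scale (x axis), with a grey point for each gene tested, darker where the adjusted p was below 0.05, and the 8 genes in red. Mtl5, Zfp541 and Kctd19 lie at the lower edge of all genes over mean counts from 87.5 to 497, and Tcfl5 and Ovol1 lie in the central band.

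The genes in the strong group also had higher counts in the P12 table than in the P8 table. The ratio of the mean count at P12 to that at P8 was 3.60 for Mtl5, 2.77 for Zfp541 and 1.40 for Kctd19, where the median over 15180 genes was 1.02. For Mybl1 the ratio was 1.78 and for Sox30 1.46. Tcfl5 at 1.02, Rfx2 at 1.07 and Ovol1 at 0.95 stood near the median of all genes. The 5 genes called lower at P12 were thus the 5 with the highest ratios. The tables were normalized separately and their means include the knockout libraries, so these ratios are a description and no test of age.

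At P8 no member passed in either comparison. Against the wild type, 0 of 8 exons and 0 of 8 introns were called by the authors' DESeq2 fit, where 0.0449% of 15592 exons and 0.0141% of 14173 introns were called in either direction, and the tables give adjusted p-values only. With so few calls over all genes, a count of 0 among 8 is close to the background. In the authors' deposited table the exon folds ran from -0.10 for Mybl1 to 0.13 for Rfx2, all with an adjusted p of 1. Mtl5 at 0.05, Zfp541 at 0.04 and Kctd19 at 0.04 in the authors' deposited table lay within 1 SD of all exon folds with mean counts from 50 to 200, which was 0.08. The SD was 0.04 at mean counts from 10 to 50 and 0.11 from 1000 up, so folds spread less where counts were low. Whether the authors' fit drew such folds toward 0 is not stated. Folds near 0 against 1 control library do not show that these genes were unchanged. Introns of Mybl1 were at -0.22 in the authors' deposited table, a value undercut by 1.69% of introns tested, and did not pass either.

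The heterozygous library at P8 gave other values for the strong group. Against it the same 2 knockout libraries stood at -0.10 for Mtl5, -0.06 for Zfp541 and -0.09 for Kctd19 in the authors' deposited table, with 0 of 8 exons called where 0.0577% of all exons were. Heterozygote over wild type, 0 of 8 exons were called, where 0.0128% of all exons were higher, yet all 8 lay above 0, from 0.02 for Ovol1 to 0.15 for Mtl5 in the authors' deposited table, while 49.8% of exons tested lay below 0. Spermatid markers went the same way here: 7 of 7 measured were above 0 in the heterozygote, with a median of 0.45 and 2 called higher. These 2 were the only exons called higher of the 15592 tested. In the knockout against the heterozygote 5 of 7 were called lower, out of 9 exons called in either direction among all those tested. In the knockout against the wild type, however, 7 of 7 markers lay below 0, with a median of -0.19, while 7 of the 8 member exons lay above 0. The part of the spermatid markers' shifts in the values of the 8 genes was not tested. Each of these P8 controls was a single library.

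In the newborn ovary no member passed. Of the 8 exons 0 were called, and of the 6 introns that reached the floor also 0, by the authors' DESeq2 fit, where 0.548% of 14606 exons and 0.279% of 12915 introns were called. The members were sparse there, with mean exon counts from 17.6 for Ovol1 to 268 for Mybl1. In the authors' deposited table Zfp541 had the lowest exon fold, -0.45 at a mean count of 102 with an adjusted p of 0.585, while its introns were at -0.05 per the authors' deposited table. On the other side of 0 the authors' deposited table had Mtl5 at 0.27 and Kctd19 at 0.16, which did not pass either. So the 3 genes at the lower edge in P12 testis did not share a direction in ovary, although none of these ovary values passed.

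The other members in ovary did not pass either. Rfx2 was at -0.23 in exons and -0.35 in introns in the authors' deposited table, with mean counts of 164 and 244, and 0.79% of introns tested lay below it. Introns of Mybl1 were at 0.20 in the authors' deposited table, above 94.1% of introns tested. Ovol1 and Tcfl5 were at -0.22 and -0.21, Sox30 at -0.05 and Mybl1 at 0.02 in exons, per the authors' deposited table. For comparison, exon folds of all ovary genes with mean counts from 10 to 50 had an SD of 0.12, and from 50 to 200 of 0.16. Oocyte markers were lower in the same libraries, with 5 of 7 called lower and a median of -1.38, and their part in the members' values was not tested. Whether the response to loss of Ythdc2 differs between ovary and testis was not tested.

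In the m6A immunoprecipitate of P8 testis the 8 genes split. Of their exons 4 were called higher and 2 lower than input, where 26.9% of 15807 exons were higher and 26.3% lower. The share of members called, 6 of 8, stands beside 53.2% of all exons. The table has one value for all exons of a gene, so a fold says how strongly a gene's RNA was enriched relative to other genes, not where a methylated site lies, and a fold below 0 does not show that m6A is lacking. With 1 immunoprecipitate and 1 input, no replicate checks these values, and how the authors estimated the spread behind the adjusted p-values is not stated. The mean counts behind the floor were pooled here over all m6A libraries, those of P12 and P20 included. Depth of these genes in the P8 libraries alone is therefore not known.

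**Figure D3:**
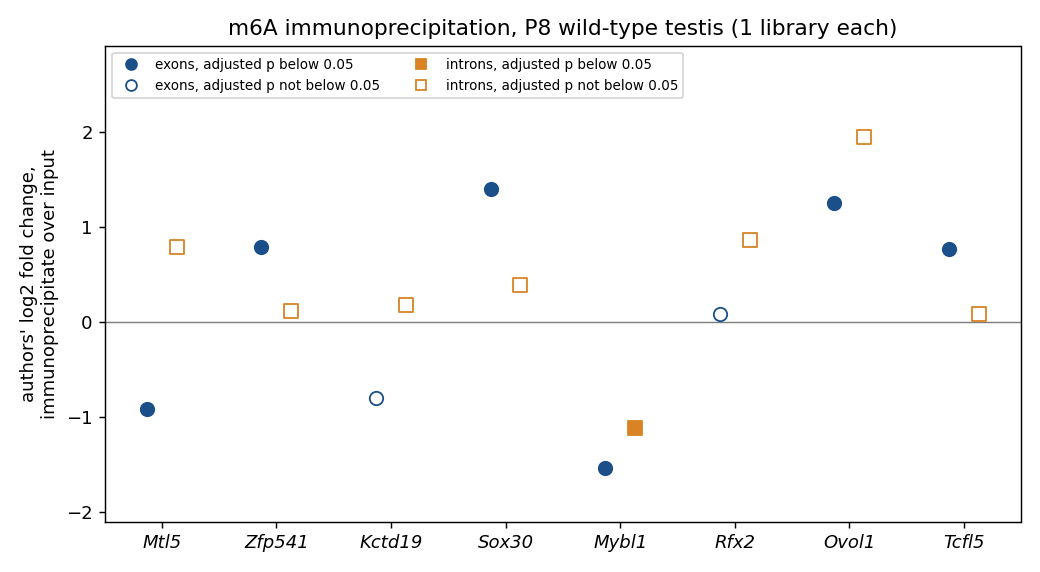
Authors' log2 fold change of m6A immunoprecipitate over input (y axis) for exons (circles) and introns (squares) of the 8 genes (x axis) in wild-type P8 testis, filled where the adjusted p was below 0.05. Exons of Sox30, Ovol1, Zfp541 and Tcfl5 are filled above 0 and those of Mybl1 and Mtl5 below 0.

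By exons, Sox30 was the most enriched member, and the authors' deposited table put it at 1.40 with an adjusted p of 1.07e-05. Ovol1 followed at 1.25, for which the authors' deposited table gave an adjusted p of 0.00304. The authors' deposited table also had Zfp541 higher at 0.79 (adjusted p = 0.00716) and Tcfl5 higher at 0.76 (adjusted p = 0.000235). These 4 genes come from both ends of the P12 order. By exons, Mybl1 was the most depleted member, for which the authors' deposited table gave -1.54 in exons (adjusted p = 1.44e-09) and -1.12 in introns (adjusted p = 0.0305). No other member had introns called, where 8.87% of 9410 introns tested were called in either direction. The authors' deposited table gave -0.92 for Mtl5, the other gene called lower, with an adjusted p of 0.00464. Introns did not always follow exons. Introns of Mtl5 were at 0.78 and those of Ovol1, the highest among the members, at 1.94 in the authors' deposited table, and neither passed (adjusted p = 0.470 and 0.0759).

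Kctd19 and Rfx2 did not pass in the m6A comparison. For Kctd19 the authors' deposited table gave -0.80 with an adjusted p of 0.0871, and for Rfx2 it gave 0.09 with an adjusted p of 0.804. The partners Zfp541 and Kctd19, which stood together in P12 testis, thus lay on opposite sides of 0 here, though only the value of Zfp541 passed. Among the 5 genes called lower at P12, 2 were enriched for m6A, 2 depleted and 1 not called, and among the other 3 genes 2 were enriched and 1 was not called. No relation between the m6A and P12 folds was tested.

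The partners and relatives of these proteins gave 0 calls in P12 exons, where 0.881% of all exons were called in either direction, so that counts of 0 in lists this short are close to the background. Of the 5 measured genes of the MiDAC complex, which holds histone deacetylases, 0 were called in P12 exons and their median was -0.06. Hdac1, a deacetylase, was at -0.08 and Hdac2, its close relative, at 0.14 in the authors' deposited table. Trerf1, related to the scaffold gene of that complex, had the lowest value at -0.36 in the authors' deposited table and did not pass. A further list of 12 genes held the MuvB core, the MYB and CXC relatives, and E2f4, E2f5, Rbl1, Rbl2 and Tfdp1. All 12 genes of that list went uncalled, with a median of 0.02. In it Lin54, the relative of Tesmin, was at 0.12, and Myb and Mybl2, the relatives of Mybl1, at 0.15 and 0.03 in the authors' deposited table. Among 7 measured RFX relatives 0 were called, with Rfx1 lowest at -0.32 in the authors' deposited table, close to Rfx2. Id2, a gene that OVOL1 represses in spermatocytes, was at 0.15 in the authors' deposited table, and 0 of 5 genes of its list were called. Counts of 0 here are from the authors' DESeq2 fit, whose unadjusted p-values are not used here.

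Of 16 measured regulators of spermatogonia and meiotic entry, which act earlier than the 8 genes, 0 passed in P12 exons and the median was -0.06, a count again close to the background. Stra8, induced by retinoic acid at meiotic entry, was at 0.39 in exons per the authors' deposited table, and its introns rose by 0.60 with an adjusted p of 0.0173 there. Among 24 other measured regulators of spermatocytes and spermatids 2 fell and 0 rose, with a median of -0.15 and 17 below 0. Prdm9, which marks the sites of meiotic recombination, fell by 0.87 and Zfy2, a zinc finger gene of the Y chromosome, fell by 0.83 in the authors' deposited table.

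Many genes of meiotic prophase I, the stage of these 8 genes, were also called lower at P12. Of 37 measured genes of meiotic prophase I, 19 fell, 0 rose and 18 were not called in exons, of which 1, Meiob, had no adjusted p. In this list 6 lay above 0, and the median was -0.55, close to that of the 8 genes. The lowest were Rad51ap2 at -1.80 and Spata22, needed for meiotic recombination, at -1.62 in the authors' deposited table, near the values of Mtl5 and Zfp541. Dmc1, the meiotic recombinase gene, was lower at -0.69 and Tex12, a gene of the synaptonemal complex, at -0.54 in the authors' deposited table, near Sox30 and Mybl1. This list was chosen with these results known and gives no independent evidence of its direction. It also holds Prdm9, counted above, and Sycp3, a germ cell marker, so these lists overlap. The piRNA genes that MYBL1 binds, and their partners, gave 0 calls of 16 in P12 exons, with a median of -0.08 and 12 below 0. Piwil1, the PIWI protein gene of pachytene, was at -0.33 in the authors' deposited table and did not pass, and Mael, another gene that MYBL1 binds, was at -0.08 in the authors' deposited table. Markers of undifferentiated spermatogonia had a median of -0.07 and those of Sertoli cells of -0.08 in the same comparison, with 0 of 7 called in each. Of the germ cell markers 1 of 5, Sycp3, was lower at -0.66, and 1 of 5 Leydig cell markers, Cyp17a1, was higher at 0.76, in the authors' deposited table. The 5 oocyte and 2 spermatid markers measured gave 0 calls. The part of these shifts in the members' values was not tested.

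In ovary some piRNA genes fell, while Mybl1 did not pass. Of 16 measured, 6 fell, 0 rose and 10 did not pass, with a median of -0.33, against 0.445% of all exons lower. Tdrd1, a tudor-domain gene of transposon silencing, fell by 1.83 per the authors' deposited table, with an adjusted p of 3.08e-25. Mov10l1, a helicase gene needed to make piRNAs, fell by 1.08 per the authors' deposited table, with an adjusted p of 4.58e-08. Tdrd9, Mael, Piwil2 and Tdrd5 were the other 4, from -1.52 to -0.73 in the authors' deposited table. Oocyte markers were lower in these libraries, as given above, and all 5 germ cell markers lay below 0, with a median of -0.15 and 1 called lower, Mael, which is also one of the 6. Their part in the values of the piRNA genes was not tested. Of 35 measured genes of meiotic prophase I, 1 was called lower and 3 higher in ovary exons, where 0.548% of all exons were called in either direction. Their median was -0.08. Few regulators passed in ovary exons. Of 14 measured regulators of spermatogonia and meiotic entry, 12 were not called. In the authors' deposited table Sohlh1 was lower at -1.06 and Stra8 higher at 0.52. Of 22 other measured regulators of spermatocytes and spermatids, 21 were not called, and Taf7l was lower at -0.71 in the authors' deposited table. Sohlh1 acts in both spermatogonia and oocytes, and Taf7l is a germ cell relative of a TFIID subunit.

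**Figure D4:**
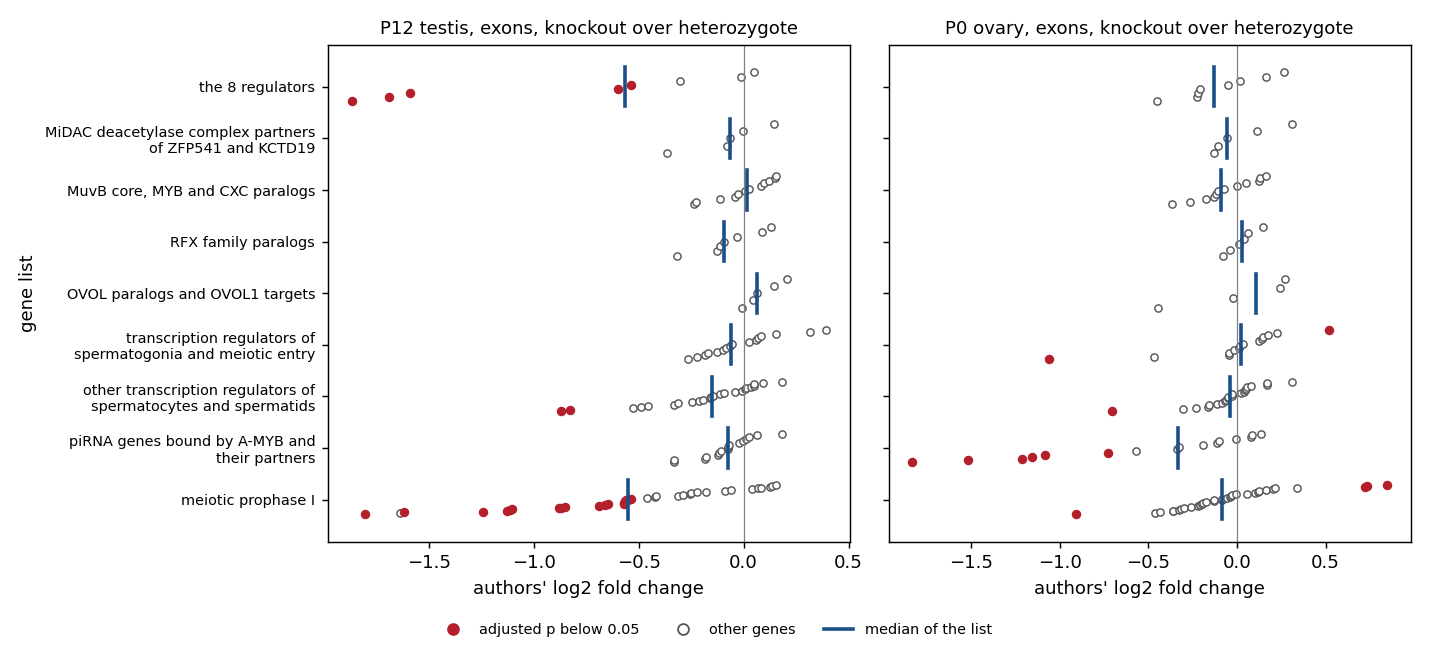
Authors' exon log2 fold changes (x axis) of the 8 genes and of 8 gene lists (y axis) in P12 testis and P0 ovary, knockout over heterozygote, with red points where the adjusted p was below 0.05, open points for other genes (including Meiob, which has no adjusted p at P12) and a bar at each median. In P12 testis red points lie in the rows of the 8 genes, of meiotic prophase I and of other regulators of spermatocytes. In ovary the row of piRNA genes holds 6 red points, all below 0, and that of meiotic prophase I holds 1 below and 3 above 0.

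Genes with the most similar folds were sought over 3 comparisons, P12 testis, P0 ovary and P8 testis against the wild type, among 11380 genes with a mean count of at least 50 in all 3 tables. Likeness was the Euclidean distance between exon folds on the log2 scale. Nearest to Mtl5 were Rad51ap2 at a distance of 0.49 and Ccnb3, a meiotic cyclin gene, at 0.50. For Kctd19 the nearest were Fbxo47, needed in meiotic prophase, at 0.49 and again Ccnb3 at 0.53. Zfp541 was farther from its neighbours, with Ythdc2, the disrupted gene itself, at 0.67 and Tsga10 at 0.74. Against the P8 wild type Ythdc2 was at -0.50 and Zfp541 at 0.04, so these 2 genes parted there. Mybl1 lay closest to Tex16 (0.05) and Cdkl2 (0.08), and Sox30 to Mdc1 (0.07) and Asb1 (0.10). Rfx2 had Ern1 and H1fx within 0.04, Tcfl5 had Tmcc3 and Pkp2 within 0.03, and Ovol1 had C330006A16Rik at 0.012 and Homer1 at 0.013. Mtl5, Kctd19, Sox30, Tcfl5 and Ovol1 had ovary mean exon counts under 50 themselves, so that the ovary part of these 5 genes' distances, small or large, rests on low counts.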

How the data were processed

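Testis and ovary total RNA libraries were made with a stranded kit after removal of ribosomal RNA, and m6A libraries with a small RNA kit, per the labels' protocols. Among builds and tools, the submitters' processing notes list mm10 and DESeq2. No aligner, counting step, annotation or version is named in the sources used. Each deposited table gives a mean normalized count, which is a signal averaged by the authors over its libraries,, log2 fold changes and an adjusted p-value, per the file headers. Depth per library is not known from these tables, so no interval or SD over libraries was computed, and each SD given is over the folds of all genes in a range of mean counts.

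The P8 and P12 total RNA columns carry the words IP and input in their headers and were read as genotype comparisons. In the m6A table, folds of exons and introns were compared across 8040 genes as a description. Spearman's rho was 0.22 in the P8 columns but 0.01 in those of P12 and -0.0042 in those of P20. Features with counts but no fold numbered 0, 2911 and 2823. Only P8 values were therefore taken as belonging to the named genes. The planned refits needed values per library; the authors' adjusted p below 0.05 was used instead, among features with a mean count of at least 10 and an adjusted p. Members, the 8 lists and 6 marker lists were chosen with earlier results of these data known. Named genes are the 8 members, list genes that passed, direct partners, and the 2 nearest genes of each member. RefSeq GRCm38.p6 gave coordinates for all 8 members (Mtl5 as Tesmin) and start windows for 5; it gave none for Kctd19, Mybl1 and Ovol1. Tables were handled with pandas 2.3.3 under Python 3.11.15, checked on simulated data. The Bind-N-Seq file was not used, since none of its 8 per-library columns could be matched to a label. Alternatives were thresholds of 0.01 and 0.1, no floor or a floor of 50, centred folds, and the heterozygote as the control at P8.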

Additional observations from a re-analysis of the deposited data

How the results depend on the processing

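At a threshold of 0.01 the number of member exons called lower in P12 testis was 3 (Mtl5, Zfp541 and Kctd19) in place of 5, and that of member introns called lower in the m6A immunoprecipitate was 0 in place of 1. At a threshold of 0.1 the number of member introns called higher in the m6A immunoprecipitate was 1 (Ovol1) in place of 0. The other 81 counts of members stayed within 1.5 times. They cover these thresholds, no floor on mean counts, a floor of 50, centred folds and the heterozygote as the P8 control. No exon fold of a member changed sign when centred (32 values). None could, since the median subtracted, from -0.019 in m6A to 0.007 in P12 testis, was smaller than each member's fold in the same comparison. Centring also left the adjusted p as it was. Dropping the floor could not change exon counts, as every member exon had a mean count of at least 17.6. Many of the 81 counts were 0 under every setting. The tally is therefore a weak check of how stable the results are. No paired analysis was possible because the tables hold the authors' comparisons and no values per library, and for the same reason leaving out each replicate was not run. Over all genes at P12, 85 exons were called lower at 0.01 and 162 at 0.1, against 122 at 0.05. In ovary 6 of the 8 members had exon or intron mean counts under 50, where depth limits what can be called.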

Other observations

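Ovol1 was the only member with antisense reads at a mean normalized count of at least 10, in exons and in introns of P12 testis, P0 ovary and P8 testis, 6 values in all. For its antisense exons the authors' deposited tables gave -0.53 in P12 testis, 0.33 in P0 ovary and 0.37 in P8 testis against the wild type, at mean counts from 13.8 to 22.5. The authors' deposited tables had its sense exons at -0.01, -0.22 and 0.06 in the same comparisons. None of the 6 antisense values passed.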
